A study of Mus musculus with 4 samples.

Results

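Granzymes are serine proteases that cytotoxic lymphocytes keep in secretory granules, and perforin is the pore-forming protein that lets them into a target cell. The 10 genes described here are Gzma, Gzmb, Gzmc, Gzmd, Gzme, Gzmf, Gzmg, Gzmk, Gzmm and Prf1. They were taken as every probe set whose only gene symbol in the array's annotation was one of these 10, which gave 12 of 45037 probe sets other than controls, with 2 each for Gzmd and Prf1. The family was picked on the differences between these same tumours, those of Gzme and Gzmd among them, so all values of its members between the groups are a description and carry no test.

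Gene expression was measured on Affymetrix mouse arrays in 4 mammary tumours, each grown in a nude mouse from Eph4 cells, a line of mouse mammary epithelium. In the 2 Eph_EN_DN tumours the Eph4 cells carried the ETV6-NTRK3 fusion oncogene together with TAM67, a dominant negative form of the AP-1 subunit c-Jun. In the 2 Eph_EN tumours the cells carried ETV6-NTRK3 alone, so the fusion is common to all 4. The sources used here give no promoter of the constructs, clonality of the cells or age of the mice. The comparison addressed the part of AP-1 in tumour formation by the fusion. Nude mice lack a functional thymus and so most T cells, while their natural killer (NK) cells remain, and the arrays read RNA of transplanted and host cells together. The epithelial keratin gene Krt8 read 1596 and 1470 intensity units in the Eph_EN_DN tumours, against 2048 and 2017 in the Eph_EN tumours, and Krt18 read 683 and 691 against 715 and 1096. Both keratins were thus lower in both Eph_EN_DN tumours, while 2 other epithelial genes overlapped, Epcam with 226 and 248 in Eph_EN_DN against 307 and 246 in Eph_EN tumours, and Cdh1 with 96.1 and 134.1 against 112.7 and 89.5.

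In killer cells, granzymes are made as inactive precursors, activated by cathepsin C, packed on the proteoglycan serglycin and released with perforin when granules fuse at the contact with a target. Granzyme A has trypsin-like activity and granzyme B cuts after aspartate and activates caspases. Granzymes C to G are a rodent group known from activated lymphocytes and from NK cells of the pregnant mouse uterus. Along chromosome 14 the gene order is Gzme, Gzmd, Gzmg, Gzmn, Gzmf, Gzmc and Gzmb, while Gzma and Gzmk lie on chromosome 13 and Gzmm and Prf1 on chromosome 10.

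The promoters of Gzmc to Gzmg are more like each other than those of the other members, and they are shown because the members with the largest differences belong to this group. RefSeq promoter windows of build GRCm38.p6, from 250 bases before to 50 after the annotated start, were found for all 10 genes, with 2 windows for Gzmm. In global alignments the 10 pairs among Gzmc to Gzmg were 74.6% to 93.4% identical, with Gzmd and Gzme the closest pair, whereas the other 45 pairs of member windows were 44.8% to 53.2% identical. The run of 14 letters CTTAAGTAATGTGA was found in 5 of 32851 promoter windows, those of Gzmc, Gzmd, Gzme, Gzmf and Gzmg, and was chosen after these windows had been compared. The 60 bases that start there are given 5′ to 3′, with the 8 letters at the position of a cyclic AMP response element in capitals.
Gzme: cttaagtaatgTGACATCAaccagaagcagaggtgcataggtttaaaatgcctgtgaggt
Gzmd: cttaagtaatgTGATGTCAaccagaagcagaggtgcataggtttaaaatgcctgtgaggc
Gzmg: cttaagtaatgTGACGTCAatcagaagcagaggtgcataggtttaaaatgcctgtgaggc
Gzmf: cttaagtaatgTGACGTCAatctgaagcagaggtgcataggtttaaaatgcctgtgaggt
Gzmc: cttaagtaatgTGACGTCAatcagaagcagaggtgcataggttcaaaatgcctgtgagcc
These lie on the minus strand at chr14:56120639-56120698 (Gzme), chr14:56132606-56132665 (Gzmd), chr14:56159608-56159667 (Gzmg), chr14:56211441-56211500 (Gzmf) and chr14:56234666-56234725 (Gzmc). The 8 letters read TGACGTCA in Gzmg, Gzmf and Gzmc, TGACATCA in Gzme and TGATGTCA in Gzmd.

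The 4 motifs searched on both strands were TGANTCA (AP-1), TGACGTCA (the cyclic AMP response element, bound by ATF, CREB and some AP-1 dimers), TGTGGT (Runx) and TCACACCT (T-box). The AP-1 letters were found in 7.81% of all 32851 windows and, among the 11 member windows, in that of Gzmb alone, 58 bases before the start. The response element was in 1.79% of all windows and in those of Gzmc, Gzmf and Gzmg, from 57 to 82 bases before the start. The Runx letters were in 16.8% of all windows and in 9 of the 11 member windows, and the T-box letters were in 1.28% of all windows and in 0 of the 11. Matches of different motifs did not overlap in these windows, and the similar windows of Gzmc to Gzmg are not independent of each other. The whole windows of Gzme, Gzmd and Gzmb are printed because Gzme and 1 probe set of Gzmd had the largest differences, while Gzmb, at the other end of the cluster, was not lower, with Runx and AP-1 matches in capitals, and in Gzme and Gzmd also the 8 letters given above.
Gzme: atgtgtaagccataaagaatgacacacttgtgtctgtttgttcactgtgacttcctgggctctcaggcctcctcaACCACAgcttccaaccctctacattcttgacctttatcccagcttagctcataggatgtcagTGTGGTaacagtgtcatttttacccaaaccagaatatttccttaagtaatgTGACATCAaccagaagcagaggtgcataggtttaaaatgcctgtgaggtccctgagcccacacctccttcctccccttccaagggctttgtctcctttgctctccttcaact
Gzmd: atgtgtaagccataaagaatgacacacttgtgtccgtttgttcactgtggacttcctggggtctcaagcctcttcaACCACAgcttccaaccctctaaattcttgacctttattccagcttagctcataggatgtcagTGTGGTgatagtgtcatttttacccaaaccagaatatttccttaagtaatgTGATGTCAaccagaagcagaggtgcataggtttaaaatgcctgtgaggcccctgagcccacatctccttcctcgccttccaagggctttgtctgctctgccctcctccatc
Gzmb: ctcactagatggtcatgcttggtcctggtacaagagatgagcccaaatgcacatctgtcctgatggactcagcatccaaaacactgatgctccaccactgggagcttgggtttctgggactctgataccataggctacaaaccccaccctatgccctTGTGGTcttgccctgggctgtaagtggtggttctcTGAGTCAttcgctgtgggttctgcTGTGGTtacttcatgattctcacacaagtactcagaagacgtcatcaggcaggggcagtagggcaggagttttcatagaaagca
They lie at chr14:56120576-56120875, chr14:56132544-56132843 and chr14:56262285-56262584, all on the minus strand. A match here is a run of letters and was not tested as a binding site.

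**Figure D1:**
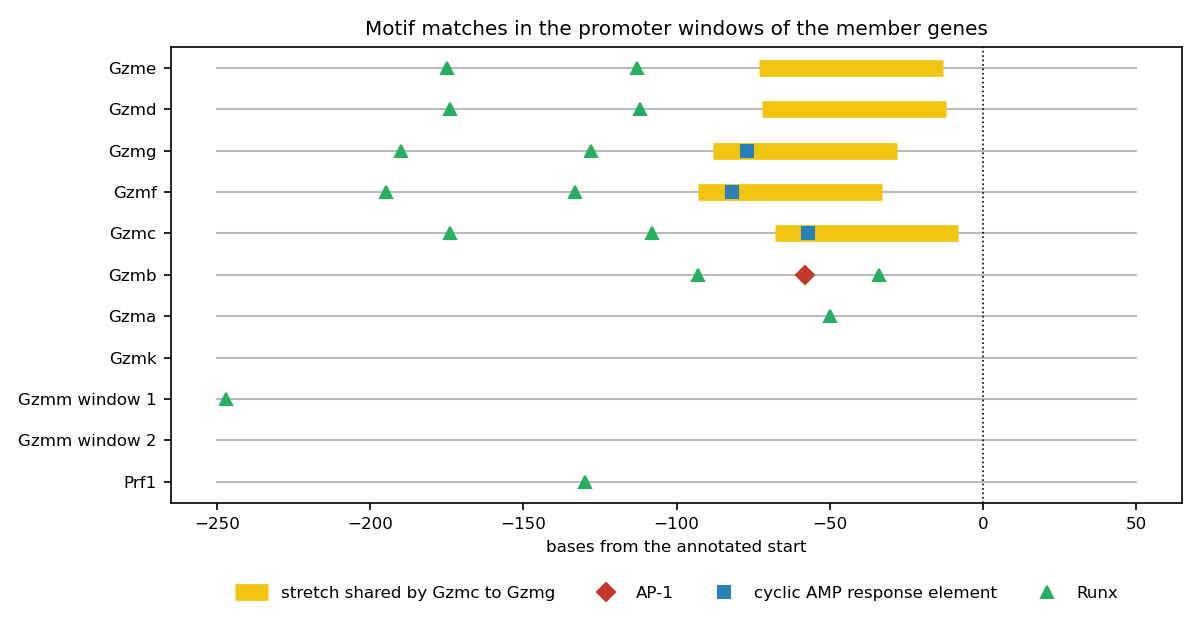
Positions of motif matches in the 11 promoter windows of the member genes, in bases from the annotated start on the horizontal axis. Yellow bars are the 60-base stretch shared by Gzmc to Gzmg, which holds a response element (blue squares) in Gzmg, Gzmf and Gzmc, and the AP-1 match (red diamond) is in Gzmb, while Runx matches (green triangles) are in 9 windows.

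In the Eph_EN_DN tumours Gzme, Gzmd and Gzmc were several-fold lower, Gzmk was lower with a wide spread, Gzma and Gzmf were lower by less than 2-fold, and Gzmb and Gzmm were not lower. Values are intensities in linear units, differences are Eph_EN_DN minus Eph_EN on the scale log2(intensity + 16), n = 2 tumours a group, and only a tumour number in the labels tells replicates apart, so their spread may be technical. The pseudocount of 16 shrinks differences of dim probe sets, and all member values lay between 0.854 and 274.9 units. Array medians were 38.1 and 40.8 units for Eph_EN_DN and 35.6 and 35.9 for Eph_EN. Of 24 member values in each group, 16 in Eph_EN_DN and 5 in Eph_EN lay below the median of their own array. In bulk tumours, fewer cells of a type and less RNA per cell cannot be told apart.

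Of the 12 member probe sets, 10 had negative differences, against 43.6% of all probe sets. In 8 of the 12 both Eph_EN_DN tumours lay below both Eph_EN tumours, which held for 15.9% of all probe sets, and in 1, for Gzmb, both lay above, which held for 21.5%. At least 2-fold lower were 5 of 12, for Gzmc, Gzmd (both probe sets), Gzme and Gzmk, against 0.768% of all probe sets and 0.639% of the 18944 probe sets whose mean log2 value lay within the members' range. At least 2-fold higher were 0 of 12, against 1.43% of all probe sets. The count of lower ones was 7 with a pseudocount of 1 and 3 with 64. The median difference was -0.74 over the 12 members and 0.059 over all probe sets. Nothing is read from these shares about the family, since its choice rested on this contrast. The count of negative differences was 10 under both other scalings and both other pseudocounts, 11 without Eph_EN tumour 1, 10 without Eph_EN tumour 2 or Eph_EN_DN tumour 2, and 8 without Eph_EN_DN tumour 1.

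**Figure D2:**
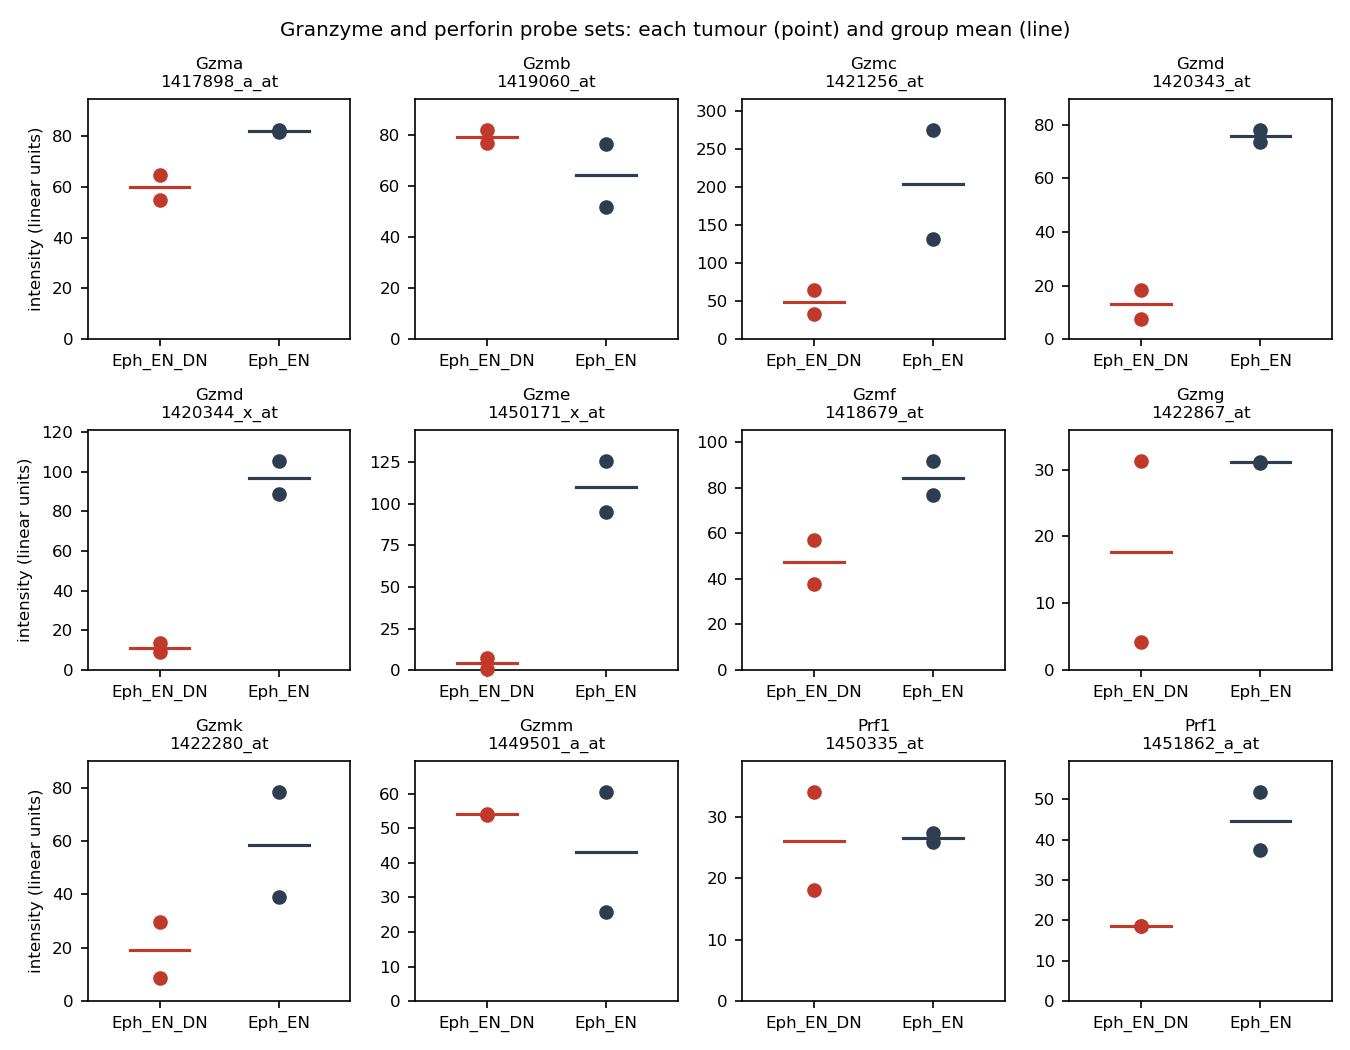
Intensity in linear units of each of the 12 member probe sets, with 1 point for each tumour and a line at the group mean, Eph_EN_DN on the left in red and Eph_EN on the right in dark blue. The groups stand apart in Gzmc, Gzmd and Gzme and share a range in Gzmg, Gzmm and 1 of the Prf1 probe sets. Each vertical axis starts at 0 and has its own scale.

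Gzme, a granzyme of the rodent group, read 0.854 and 7.41 units in the Eph_EN_DN tumours, against 95.1 and 125.7 in the Eph_EN tumours. The 2 low values were far below the medians of their arrays, and the 2 high values were above theirs. Means were 4.13 ± 4.64 in Eph_EN_DN and 110.4 ± 21.6 in Eph_EN (SD, n = 2 each), a difference of -2.66 that ran from -2.90 to -2.42 as each tumour was left out. Its size rests on the pseudocount, being -4.80 with 1 and -1.35 with 64.

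Gzmd, its neighbour on the chromosome, has 2 probe sets. On 1420344_x_at it read 9.10 and 13.4 units in the Eph_EN_DN tumours, against 88.8 and 105.3 in the Eph_EN tumours, a difference of -2.05. On 1420343_at it read 7.61 and 18.5 units in the Eph_EN_DN tumours, against 73.7 and 78.0 in the Eph_EN tumours, a difference of -1.69. Both probe sets put the Eph_EN_DN tumours below the array medians and the Eph_EN tumours above them, with no overlap. A name ending in x_at marks a probe set whose probes may also bind related transcripts, which applies to the Gzme probe set and to 1 of those for Gzmd. A further probe set, 1421227_at, is annotated with both Gzme and Gzmd and so is no member. It read 6.86 and 13.0 units in the Eph_EN_DN tumours, against 94.2 and 114.6 in the Eph_EN tumours. Binding of the Gzme and Gzmd probe sets to each other's transcripts was not tested.

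Gzmc, another of the rodent granzymes, read 63.96 and 32.8 units in the Eph_EN_DN tumours, against 132.3 and 274.9 in the Eph_EN tumours. The groups did not overlap, and the Eph_EN tumours differed from each other by about as much as the nearer tumours of the groups on the log2 scale. Means were 48.4 ± 22.1 in Eph_EN_DN and 203.6 ± 100.8 in Eph_EN (SD), a difference of -1.73, with -1.25 to -2.22 as each tumour was left out. Gzmf, which lies next to Gzmc, read 37.6 and 56.8 units in the Eph_EN_DN tumours, against 91.5 and 76.6 in the Eph_EN tumours. This difference of -0.68 was smaller than those of Gzmc, Gzmd and Gzme, although the groups did not overlap. Gzmg, between Gzmd and Gzmn, read 4.13 and 31.3 units in the Eph_EN_DN tumours, against 31.2 and 31.1 in the Eph_EN tumours. Only Eph_EN_DN tumour 1 was low, the groups overlapped, and the difference of -0.61 was 0.0044 without that tumour. Gzmn, a granzyme best known from testis and no member here, read 14.1 and 12.2 units in the Eph_EN_DN tumours, against 14.1 and 31.6 in the Eph_EN tumours, all below the array medians.

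Gzmb, the main caspase-activating granzyme, lies at the other end of the same cluster and did not follow Gzmc to Gzme. It read 76.8 and 81.8 units in the Eph_EN_DN tumours, against 76.6 and 51.8 in the Eph_EN tumours, a difference of 0.27 that shrank to 0.041 without Eph_EN tumour 2. In 3 of the 4 tumours the values were close together, and Eph_EN tumour 2 was lower. Gzma, the trypsin-like granzyme, read 54.9 and 65.0 units in the Eph_EN_DN tumours, against 82.5 and 82.0 in the Eph_EN tumours. The groups did not overlap and the difference was -0.37. Gzmk, also trypsin-like and a neighbour of Gzma, read 29.6 and 8.77 units in the Eph_EN_DN tumours, against 78.3 and 39.0 in the Eph_EN tumours. The difference of -1.10 ran from -1.54 to -0.66 as each tumour was left out, so its 2-fold size rested on single tumours. Gzmm, which cuts after methionine, read 54.2 and 53.9 units in the Eph_EN_DN tumours, against 25.8 and 60.4 in the Eph_EN tumours. Those groups overlapped, and the difference of 0.31 was -0.13 without Eph_EN tumour 1.

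The probe sets of Prf1, which encodes perforin, did not give the same picture. On 1451862_a_at it read 18.6 and 18.6 units in the Eph_EN_DN tumours, against 51.8 and 37.4 in the Eph_EN tumours, a difference of -0.80 with no overlap. On 1450335_at it read 18.03 and 34.0 units in the Eph_EN_DN tumours, against 25.9 and 27.4 in the Eph_EN tumours, a difference of -0.048 with overlap. All 4 values of the second probe set were below the array medians.

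**Figure D3:**
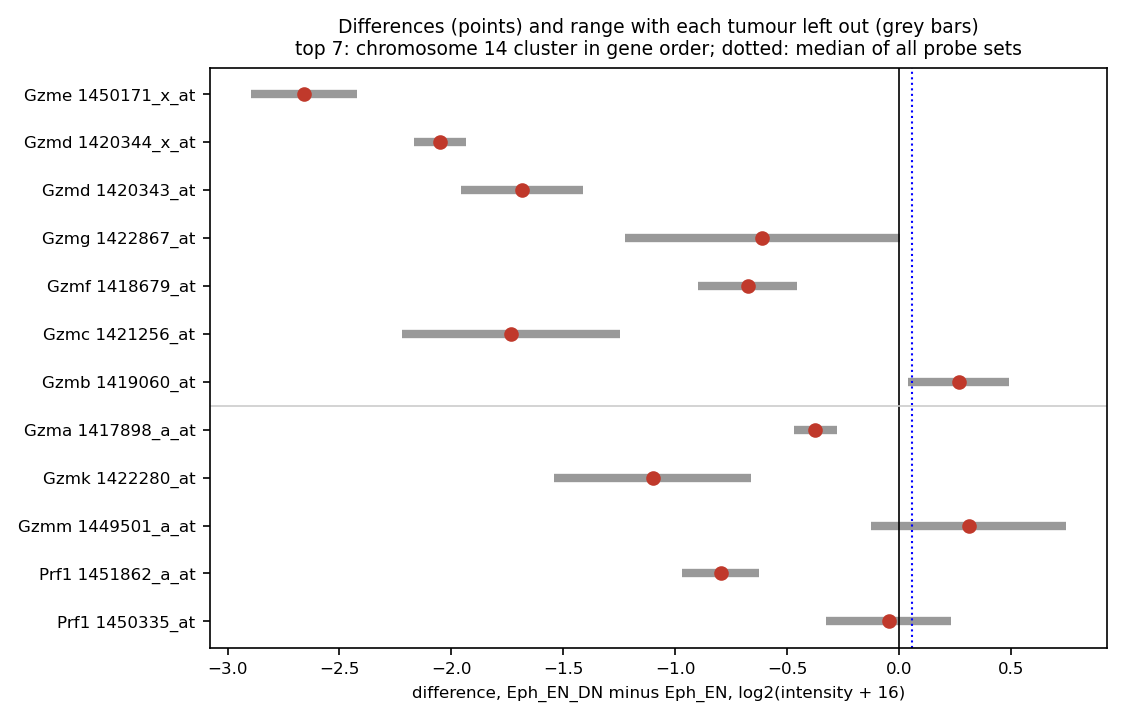
Difference of each member probe set, Eph_EN_DN minus Eph_EN on the log2(intensity + 16) scale (red points), with the range of values when each tumour is left out in turn (grey bars). The upper 7 probe sets belong to the chromosome 14 cluster in gene order, where differences ran from -2.66 for Gzme to 0.27 for Gzmb, and the dotted line is the median of all probe sets at 0.059.

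In the fit across all genes, limma tested 13331 genes after the dimmest 40% of probe sets had been left out, and 56 (0.42%) were lower and 18 (0.135%) higher in Eph_EN_DN tumours at a Benjamini-Hochberg adjusted p under 0.05. With each array centred on its median, 48 were lower and 7 higher. Of the member genes 9 were tested, Gzmg being too dim, and 3 (Gzmc, Gzmd and Gzme) were among those lower, with 0 higher. These calls are no test of the family, which this contrast chose. In both Eph_EN_DN tumours Gzme, Gzmd and the tested Prf1 probe set, 1451862_a_at, lay below the filter's level of 5.38 on the log2(intensity + 16) scale. They passed the filter only through their Eph_EN values, so being tested already depended on the group where they were high. Among the settings that do not pair tumours by number, the call of Gzmc was lost without Eph_EN_DN tumour 2, without Eph_EN tumour 2, without the intensity trend and with a robust variance. The call of Gzmd was lost without Eph_EN tumour 2, and Gzme dropped out as too dim when either Eph_EN tumour was left out or with a pseudocount of 1. Both Gzmd and Gzme were too dim to be tested when the dimmest 60% of probe sets were left out.

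By the distance between log2 profiles over the 4 arrays, each centred on its own mean, the 8 genes of 13322 nearest to Gzme were Cxcl14, Eln, Slit3, Cd200, Irgm2, Cyp11a1, Gbp6 and Gng11, at distances of 0.77 to 1.31 log2 units. They encode a chemokine, elastin, a guidance ligand, a surface protein that restrains myeloid cells, an interferon-inducible GTPase, a steroidogenic enzyme, a guanylate-binding protein and a G protein gamma subunit. Gzmd lay at 0.64 from Gzme, nearer than any of them. For both genes the probe set kept in the fit is an x_at one, so each may also bind the other's transcript, which was not tested. The 5 genes nearest to the Prf1 probe set kept in the fit, 1451862_a_at, were C1qb, Kcnj10, Vcam1, Wfdc17 and Ephb6, at 0.023 to 0.11 log2 units. C1qb, a complement gene of macrophages, read 831 and 845 units in the Eph_EN_DN tumours, against 1682 and 1316 in the Eph_EN tumours. Vcam1, an adhesion molecule, read 71.6 and 70.0 units in the Eph_EN_DN tumours, against 151.9 and 126.8 in the Eph_EN tumours. With 4 arrays many profiles lie close, and the likeness is a description.

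Genes that serve granzymes or mark the cells that carry them were then read from 14 lists, 8 of pathways and 6 of cell type markers. Of 113 list genes tested, limma called 0 lower and 0 higher over all genes, with 13 (11.5%) lower and 1 (0.885%) higher at an unadjusted p under 0.05, against 4.94% lower and 4.86% higher of all genes tested. Of these 13 genes 5 were macrophage markers. The lists were written with earlier results of these data known, so nothing is read from these shares. Klrg1, Mcpt1 and Cd247, also among the 13, lay below the filter's level of 5.38 in both Eph_EN_DN tumours. These genes were tested only through their Eph_EN values. The median over all genes tested was 0.019.

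Among 15 genes tested for granule loading and release, 11 were negative with a median of -0.18. Ctsw, cathepsin W, a protease of cytotoxic lymphocytes, read 26.9 and 20.5 units in the Eph_EN_DN tumours, against 66.4 and 61.2 in the Eph_EN tumours. Its groups did not overlap, and the difference was -1.01 ± 0.31 (SE, limma adjusted p = 0.232). Unc13d, which primes granules for fusion, differed by -0.49 ± 0.22 (limma adjusted p = 0.493). Ctsc, the granzyme activator, was at -0.27, Srgn, serglycin, at -0.21, and Nkg7, a granule membrane protein, at 0.0093.

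All 6 genes tested on the list of granzyme inhibitors were positive, with a median of 0.32, against 0.019 over all genes tested. Over all probe sets, dim ones included, 43.6% were negative, which is not the share among genes tested. The list also holds Bcl2 and Xiap, which are inhibitors of cell death rather than of granzymes themselves. The groups overlapped for Serpina3n, Xiap, Bcl2 and Serpinb6b, and did not for Serpinb9 and Serpinb6a. Serpinb9, the cytosolic inhibitor of granzyme B, read 231 and 199.5 units in the Eph_EN_DN tumours, against 174.1 and 145.0 in the Eph_EN tumours, a difference of 0.40 without overlap. Serpina3n, a secreted inhibitor of granzyme B, read 50.5 and 131.0 units in the Eph_EN_DN tumours, against 65.3 and 28.9 in the Eph_EN tumours, with overlap and a difference of 0.71 ± 0.34 (limma adjusted p = 0.516). Xiap, a caspase inhibitor, was at 0.42 ± 0.24 (limma adjusted p = 0.595), or 0.12 without Eph_EN_DN tumour 1. The difference of Serpina3n was 0.14 without Eph_EN_DN tumour 2.

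Of the pore-forming relatives of perforin 3 were tested. Mpeg1, perforin-2 of macrophages, read 381 and 382 units in the Eph_EN_DN tumours, against 866 and 521 in the Eph_EN tumours (difference -0.79 ± 0.24, limma adjusted p = 0.231). Its groups did not overlap, and it passed the threshold only without Eph_EN tumour 2, at -1.15, among the alternatives run. The terminal complement gene C6 was at -0.59 ± 0.27 (limma adjusted p = 0.482), and the third, C8b, at 0.32.

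Of the 4 tested neighbours of the cluster, which encode mast cell and neutrophil proteases, Mcpt1 was at -0.94 ± 0.42 (limma adjusted p = 0.474) and Cma1, mast cell chymase, at -0.17, or 0.11 without Eph_EN_DN tumour 2. Mcpt1 read 23.5 and 14.8 units in the Eph_EN_DN tumours, against 86.2 and 27.9 in the Eph_EN tumours, so that its size rested on Eph_EN tumour 1. The substrates and death effectors had a median of 0.11 over 12 genes, 10 of them positive, with Dffa, the inhibitor of the caspase-activated nuclease, at -0.41 and Gsdme, the pore-forming gasdermin E, at 0.36.

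Inducing cytokines and receptors had a median of -0.17 over 11 genes, 9 of them negative. Il18r1, a receptor chain for interleukin-18, read 489 and 697 units in the Eph_EN_DN tumours, against 281 and 400.5 in the Eph_EN tumours (difference 0.77 ± 0.24, limma adjusted p = 0.251). Both Eph_EN_DN tumours were the higher ones. Il12rb1 of the interleukin-12 receptor was at -0.42, or 0.20 without Eph_EN_DN tumour 1. Transcription factors of killer cells had a median of -0.0043 over 10 genes, with Zeb2 at 0.44 and Tox at 0.33, both with overlap. Zeb2 was at 0.086 without Eph_EN_DN tumour 1. Death ligands and effector cytokines had a median of -0.24 over 5 genes, with Fasl at 0.52 with overlap and the chemokine Ccl4 at -0.41 without.

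**Figure D4:**
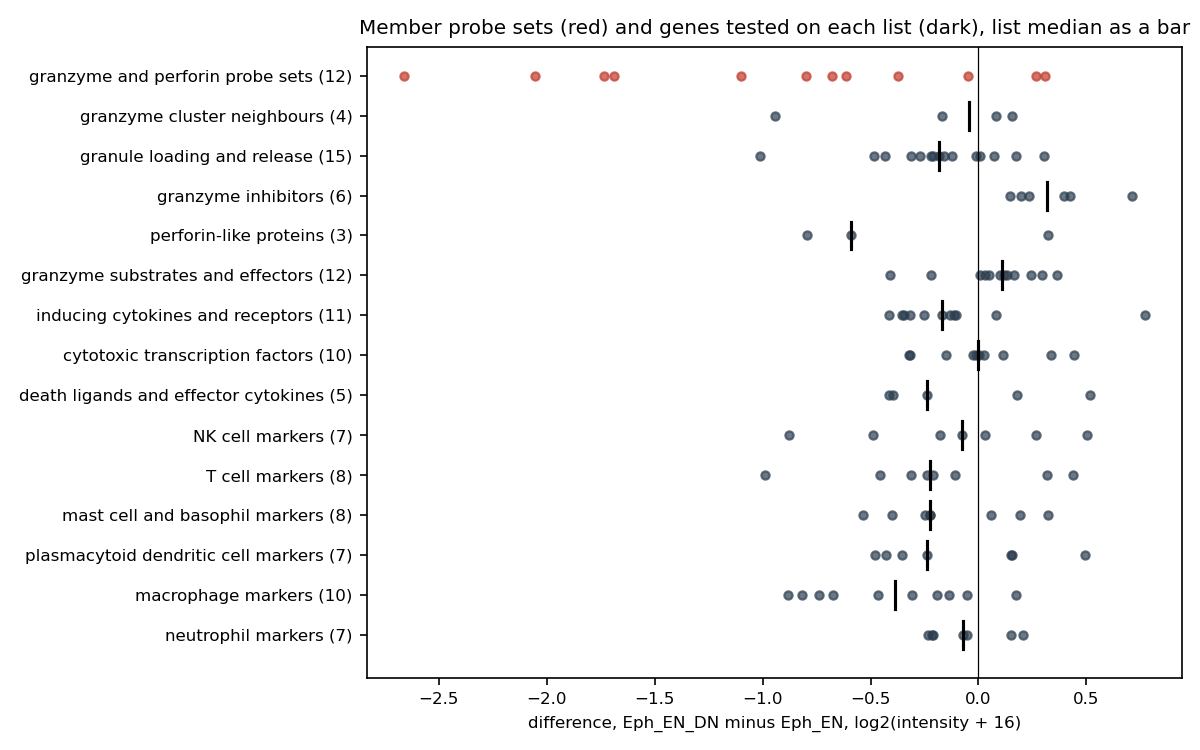
Difference of the 12 member probe sets (red, top row) and of the genes tested on each of 14 lists (dark points, number of genes in brackets, list median as a black bar), Eph_EN_DN minus Eph_EN on the log2(intensity + 16) scale. The member values reach -2.66, and the list medians lie between -0.59 and 0.32.

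Marker lists of the cell types that could carry these genes, or be present in a tumour, had medians from -0.39 to -0.072. NK cell markers had a median of -0.078 over 7 genes tested, and the summed intensity of 11 was 331 and 305 in the Eph_EN_DN tumours, against 378 and 257 in the Eph_EN tumours, with overlap. Ncr1, the NK receptor NKp46, read 25.9 and 36.8 units in the Eph_EN_DN tumours, against 38.7 and 23.0 in the Eph_EN tumours. Klrg1, an inhibitory receptor of mature NK and T cells, was at -0.88 ± 0.38 (limma adjusted p = 0.451). Cd226, an activating receptor, was at 0.50, which rested on a value of 3.13 in Eph_EN tumour 2 and was -0.43 without it.

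T cell markers had a median of -0.22 over 8 genes tested, and the summed intensity of 14 was 682 and 687 in the Eph_EN_DN tumours, against 773 and 771 in the Eph_EN tumours, without overlap. Cd3e, a chain of the T cell receptor complex, read 130.9 and 123.8 units in the Eph_EN_DN tumours, against 101.9 and 78.8 in the Eph_EN tumours. This ran against the list's median, and Cd3d read 12.8 and 21.3 units in the Eph_EN_DN tumours, against 29.2 and 19.5 in the Eph_EN tumours, all below the array medians. Cd247, another chain, was at -0.99, a size set by 1 Eph_EN tumour at 96.5 units, and Cd4 at -0.45.

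Mast cell and basophil markers, whose cells can hold granzymes in mice, had a median of -0.22 over 8 genes, with summed intensities of 579 and 390 in Eph_EN_DN and 533 and 475 in Eph_EN tumours. Kit, the receptor for stem cell factor, was at -0.54 and the tryptase gene Tpsb2 at -0.40, or 0.026 and -0.082 without Eph_EN_DN tumour 2. Plasmacytoid dendritic cell markers had a median of -0.24 over 7 genes and summed intensities of 1306 and 983 in Eph_EN_DN and 1258 and 1396 in Eph_EN tumours, with Siglech at 0.49 and Ccr9 at -0.48. Neutrophil markers had a median of -0.072 over 7 genes and summed intensities of 508 and 317 in Eph_EN_DN and 452 and 460 in Eph_EN tumours, with S100a9 at -0.23 and Csf3r at -0.21, or 0.32 and 0.22 without Eph_EN_DN tumour 2. S100a9 was also positive (0.14) without Eph_EN tumour 2, and Csf3r (0.12) without Eph_EN tumour 1. These 3 sums overlapped between the groups.

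Macrophage markers had the lowest median of the 6 marker lists, and their summed levels were separate between the groups. All 10 were tested, 9 were negative, the median was -0.39, and the summed intensity was 12342 and 9892 in the Eph_EN_DN tumours, against 18303 and 15518 in the Eph_EN tumours. The sum weighs the brightest genes most, and not all markers were separate. Adgre1 (-0.19), Cd14 (-0.14), Fcgr1 (-0.051) and Mrc1 (0.18) overlapped between the groups. Cd68 (-0.31) and Csf1r (-0.46) did not, nor did Lyz2 and the C1q genes. Lyz2, lysozyme, differed by -0.88 ± 0.20 (limma adjusted p = 0.064), or with adjusted p = 0.0117 and a difference of -1.10 without Eph_EN tumour 2. C1qb differed by -0.82 ± 0.20 (limma adjusted p = 0.0964) and passed without the same tumour, at -0.99, as did C1qa and C1qc. No marker on the 6 lists was listed at 0 on all 4 arrays. Of RNA quality, the ratio of 3′ to 5′ signal of Gapdh was 1.17 and 1.11 in the Eph_EN_DN tumours, against 0.938 and 1.04 in the Eph_EN tumours. The same ratio for actin was 1.31 and 1.34 in the Eph_EN_DN tumours, against 1.11 and 1.19 in the Eph_EN tumours, and the mean log2 signal of 18S ribosomal RNA was 6.76 and 7.43, against 5.43 and 6.40. All 3 were higher in both Eph_EN_DN tumours. The part of these cell types and of RNA quality in the lower granzyme values was not tested.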

How the data were processed

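The authors deposited linear intensity values, 45101 probe sets by 4 Affymetrix arrays. The sources used here do not give the summarisation, background correction or scaling behind them. Detection calls were not used, and precision is limited by there being 4 arrays. Per the labels, RNA was extracted with Trizol and column-cleaned, and biotinylated cRNA was hybridised. Gene symbols came from the platform annotation (34945 with 1 symbol, 932 with several, 9160 with none), and an Entrez lookup in a RefSeq table of GRCm38.p6 changed 0 symbols.

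The log2 of intensity plus 16 was used. Members and lists were chosen with earlier results of these data known, and the values of members were described without a test. Member genes bright enough also went through the fit over all genes, where their calls are no test of the family. For list genes and the background, 64 control probe sets and the dimmest 40% of the rest by mean log2 value were left out, the probe set with the highest mean was kept for each of 13331 genes, and a two-sided limma fit (version 3.58.1, R 4.3.3) with trended eBayes and Benjamini-Hochberg adjustment set the groups against each other. The fit was tested on simulated data, and other scalings, pseudocounts, dim filters, probe set rules, variance models, a replicate block and leaving out each tumour were tried. P-values and SE values rest in part on a gene's own spread between these tumours, which may be technical. The eBayes step combines it with a variance shared by genes of like intensity, so they are not a gene's own replicate spread alone. Without the intensity trend, 4 genes were called lower instead of 56, and 1 higher instead of 18. List genes not on the array annotation were not analysed here.

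Named genes were all members, from each list up to 4 genes past the threshold or else the 2 with the largest difference, and the 8 genes nearest to Gzme and 5 nearest to Prf1. Srgn, Ctsc, Nkg7, Serpinb9, C8b, Ncr1, Cd3e, Cd3d and Gzmn were added after their values were seen, as were the tissue markers Krt8, Krt18, Epcam and Cdh1. So were Serpinb6a, Serpinb6b, Bcl2, Adgre1, Cd14, Fcgr1, Mrc1, Cd68 and Csf1r. Promoter windows were aligned globally in Biopython, and plots were drawn with matplotlib.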

Additional observations from a re-analysis of the deposited data

How the results depend on the processing

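The median difference of the 12 member probe sets stayed negative under quantile normalization, median centring, pseudocounts of 1 (-1.26) and 64 (-0.40) and each tumour left out (-0.88 to -0.62). Member probe sets at least 2-fold lower numbered 5, or 7 with a pseudocount of 1, 3 with 64 and 4 to 5 with a tumour left out. Member genes called lower numbered 3, or 1 (Gzmc) under a 60% dim filter, where Gzmd and Gzme were too dim to be tested, 1 with the replicate block (Gzme, the calls of Gzmc and Gzmd being lost), and 0 to 3 with a tumour left out, 0 being without Eph_EN tumour 2. Over all genes, 56 were lower, or 29 with quantile normalization, 28 with a gene's probe sets averaged, 4 without the intensity trend, 8 with the replicate block and 11 to 85 with a tumour left out. In the same order 18 were higher, or 9, 7, 1, 3 and 11 to 71, and 7 with median centring. Of list genes 0 were lower, or 1 (Lyz2) under the 60% dim filter or a pseudocount of 64, and 0 to 5 with a tumour left out, 5 being without Eph_EN tumour 2 (C1qa, C1qb, C1qc, Lyz2 and Mpeg1). For single genes and probe sets 493 values were recomputed. Shifts were set against the spread for member probe sets only, and 13 of their values moved beyond it. A further 11, for 9 genes or probe sets, turned sign, all with a tumour left out and none for a called gene. Apart from the dim filter, the cause of these shifts was not tested. Equal tumour numbers are not tied together in the labels, and deviations of tumours numbered 1 correlated at -0.065 across genes. Most member values in Eph_EN_DN tumours lay below the array median, where fold sizes rest on the pseudocount.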
